A study of Mus musculus with 36 samples.

Results

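The regions described here are the 20 kb bins of the mouse autosomes that were in the early (E) replication timing (RT) state in each of 3 deposited domain maps, those of shLacZ CH12 cells, WT primary B cells (priB WT) and WT mouse embryonic fibroblasts (MEFs). They were chosen by the state calls of those maps, so their state is a description and not a result. They number 23365 of 123624 autosomal bins, or 18.9% (Wilson 95% interval 18.7 to 19.1%), and cover 467 Mb. Joining neighbouring bins gave 458 runs. A further 10061 bins were E in exactly 2 maps, 15526 in exactly 1 map and 74672 in none.

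Eukaryotic chromosomes are copied in a set order in S phase. Stretches of DNA that replicate early tend to be rich in genes and open chromatin, and stretches that replicate late tend to be gene-poor and to lie near the nuclear envelope. Part of this order is shared by most cell types of an organism, and part of it switches during differentiation. RIF1, the factor whose loss the series studied, acts on the timing of replication in mammalian cells, and the MCM proteins form the helicase that is loaded at origins.

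The maps come from Repli-seq, in which dividing cells are given BrdU for a short time and sorted by DNA content into cells early and cells late in S phase, and the newly made DNA of each sort is sequenced. The series held 36 libraries in 7 groups, of which CH12 shLacZ and priB WT, with 4 libraries each (2 replicates, each with an early and a late fraction), underlie the B cell maps. CH12 is a mouse B cell lymphoma line, used here as cells with intact *Rif1* that carried a lentiviral shRNA against LacZ, the control for infection. The priB WT cells were activated splenic B cells of *Rif1*+/+ mice on a C57BL/6 background, with no age given in the sources used here, and no label ties the MEF map to a sample of the series, since the study lists its reads as taken from another published data set. The growth text of the labels names IL4, CD40 and TGF beta stimulation for CH12 cells and is repeated unchanged for the priB WT libraries. The authors merged replicates ahead of state calling, which leaves 1 map per cell type, so no value has a replicate error, and cell types were not tested against each other. Intervals below cover counting only, and neighbouring bins are not independent of each other.

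The states in the files are numbers without names. In each map the state taken as E touched the state taken as late (L) in 0 places, with the middle (M) state always between them. The E state also had the highest GC content of the 3 states, with 45.8% in CH12, 45.3% in priB and 45.3% in MEFs, against 39.5%, 39.0% and 38.4% in L. Gene density had been used to name the states, so a gene density above that of L bins or of bins E in no map is no finding. The E state was also denser than the M state, with 18.9 against 8.45 gene starts per Mb in CH12, 17.7 against 7.78 in priB and 16.1 against 6.25 in MEFs. Bins E in 2 maps were mostly M in the third, so the naming may also have set part of their difference from the shared regions. Values for bins E in no map are given below as a description, beside those for bins that 1 or 2 of the maps also called E. The study divided its middle state at a log2 early to late ratio of 0 into E-like and L-like bins. The files do not hold that division, so bins and genes called M here may lie on either side of 0.

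The DNA just upstream of genes shows the kind of sequence these regions hold. The 300 bases before each protein-coding gene start were read from the mm9 (NCBIM37) genome on the gene's own strand, and CpG dinucleotides, the sites at which mammalian DNA is methylated, were counted in them. The windows below lie outside annotated exons and have the median number of CpGs of their class, and capitals mark each CpG. Irf4 (chr13:30840795-30841094, plus strand), Pold1 (chr7:51804220-51804519, minus strand) and Psmc1 (chr12:101348096-101348395, plus strand) start in bins E in all 3 maps. Vim (chr2:13495254-13495553, plus strand) starts in a bin E in priB and MEFs alone, and Cyp2a22 (chr7:27724406-27724705, minus strand) in a bin that was E in none.
Irf4: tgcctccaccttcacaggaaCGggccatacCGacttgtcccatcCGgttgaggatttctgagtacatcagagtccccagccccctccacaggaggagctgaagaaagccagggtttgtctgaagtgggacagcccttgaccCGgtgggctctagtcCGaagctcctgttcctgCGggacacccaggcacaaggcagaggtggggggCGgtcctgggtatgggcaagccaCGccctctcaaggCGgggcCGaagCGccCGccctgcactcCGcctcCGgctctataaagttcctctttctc
Pold1: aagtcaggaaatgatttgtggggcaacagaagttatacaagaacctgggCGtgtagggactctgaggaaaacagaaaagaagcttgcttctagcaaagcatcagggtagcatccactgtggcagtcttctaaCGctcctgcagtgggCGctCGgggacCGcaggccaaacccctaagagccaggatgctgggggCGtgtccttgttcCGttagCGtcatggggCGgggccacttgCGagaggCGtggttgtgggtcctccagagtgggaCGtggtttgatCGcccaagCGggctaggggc
Psmc1: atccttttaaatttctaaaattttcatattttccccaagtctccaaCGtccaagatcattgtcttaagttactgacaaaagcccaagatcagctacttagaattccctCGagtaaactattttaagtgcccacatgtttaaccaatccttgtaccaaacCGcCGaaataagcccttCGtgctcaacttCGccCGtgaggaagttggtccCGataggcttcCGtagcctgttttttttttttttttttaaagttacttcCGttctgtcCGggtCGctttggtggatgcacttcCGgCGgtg
Vim: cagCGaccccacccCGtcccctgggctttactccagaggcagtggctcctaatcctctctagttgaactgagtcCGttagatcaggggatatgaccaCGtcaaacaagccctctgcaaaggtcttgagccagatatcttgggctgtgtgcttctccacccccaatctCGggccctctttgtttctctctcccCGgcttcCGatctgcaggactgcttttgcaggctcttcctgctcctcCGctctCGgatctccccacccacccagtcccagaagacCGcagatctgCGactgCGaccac
Cyp2a22: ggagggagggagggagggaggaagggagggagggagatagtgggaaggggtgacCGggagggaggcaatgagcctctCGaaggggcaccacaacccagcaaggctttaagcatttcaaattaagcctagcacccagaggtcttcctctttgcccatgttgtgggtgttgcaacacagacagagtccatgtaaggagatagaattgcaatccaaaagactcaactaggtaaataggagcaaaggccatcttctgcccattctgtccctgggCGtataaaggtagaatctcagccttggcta
*Irf4* encodes a transcription factor of activated B cells and plasma cells, *Pold1* the catalytic subunit of DNA polymerase delta, *Psmc1* an ATPase of the proteasome, *Vim* the intermediate filament protein vimentin and *Cyp2a22* a cytochrome P450. The Irf4, Pold1 and Psmc1 windows hold 14 CpGs each, the Vim window 12 and the Cyp2a22 window 3, as the spacing of the capitals shows. Equal CpG counts came with unequal base composition, since GC content was 62.3% before *Irf4*, 57.7% before *Pold1* and 42.3% before *Psmc1*.

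Over all upstream windows, the median number of CpGs fell from 14 (quartiles 6 to 23) over 9804 genes starting in the shared regions to 12 over 2379 genes in bins E in 2 maps, 10 over 2679 genes in bins E in 1 map and 3 over 6550 genes in bins E in none. Windows with at least 10 CpGs made up 62.9% (Wilson 95% interval 61.9 to 63.8%) in the shared regions and 55.3% (53.3 to 57.3%) in bins E in 2 maps. They made up 51.7% in bins E in 1 map and 29.3% in bins E in no map. The order held on many chromosomes but not on each of them, since the share in the shared regions was above that of bins E in 2 maps on 15 of 19 autosomes and above that of bins E in no map on 19 of 19. Windows without any CpG were rare in the shared regions, 1.45%, against 14.4% in bins E in no map.

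The first question was how much of the early genome of each cell type is common to all 3. The shared bins made up 79.8% of the 29295 E bins of CH12 cells (79.3 to 80.2%), 65.1% of the 35883 E bins of priB cells (64.6 to 65.6%) and 57.6% of the 40565 E bins of MEFs (57.1 to 58.1%). The order of these shares is the reverse of the order of the E totals, because the same bins are counted against a larger total. Of bins E in both other maps, priB called 93.7% E and 0 of 24935 L, where a count of 0 allows up to 0.0120% (3 counts of the total) and the Wilson upper limit is 0.0154%. MEFs called 87.8% of such bins E and 41 of 26610 L. CH12 called 81.7% E and 259 of 28611 L, or 0.905%.

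The near misses were therefore nearly all in the M state of the map that differed. The M state always lay between E and L in these maps, so part of this was given in advance. Among all autosomal bins with a state, L made up 48.7% in CH12, 38.1% in priB and 28.5% in MEFs. Of the 10061 bins E in exactly 2 maps, 4987 were E in priB and MEFs and M in CH12, 3204 were E in both B cell maps and M in MEFs, and 1570 were E in CH12 and MEFs and M in priB. The rest were L in CH12 (259 bins) or in MEFs (41 bins). Bins that were E in MEFs alone numbered 10384, above the 4027 of priB alone and the 1115 of CH12 alone.

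Whole E domains, the unbroken stretches of a map in the E state, were counted next. Of the 537 autosomal E domains of CH12 cells, 419 (78.0%, 74.3 to 81.3%) held at least 1 shared bin, and 147 consisted of shared bins throughout. The counts were 391 of 631 in priB cells (62.0%, 58.1 to 65.7%) and 355 of 567 in MEFs (62.6%, 58.6 to 66.5%), with 42 domains shared throughout in each. Domains without a shared bin were the shorter ones in every map, with a median of 340 kb against 860 kb in CH12, 400 kb against 1160 kb in priB and 520 kb against 1420 kb in MEFs. The longest E domains without a shared bin still measured 1260 kb in CH12, 1720 kb in priB and 2680 kb in MEFs.

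The shared regions were spread unevenly over the chromosomes. Their share of bins averaged 19.2% ± 7.50 (SD, n = 19 autosomes). Chromosome 3 had the lowest share, 7.79% (7.23 to 8.40%), and chromosome 11 the highest, 41.3% (40.1 to 42.5%), with intervals far apart. Chromosome 19 followed with 25.7%, chromosome 17 with 24.3%, chromosome 2 with 24.1% and chromosome 9 with 23.9%, whose intervals overlapped. Chromosomes 18, 14 and 13, at 11.4%, 11.6% and 11.9%, also overlapped each other and lay above chromosome 3. These intervals treat bins as independent and are too narrow, since the shared bins lay in 17 runs on chromosome 3 and 13 on chromosome 18.

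**Figure D1:**
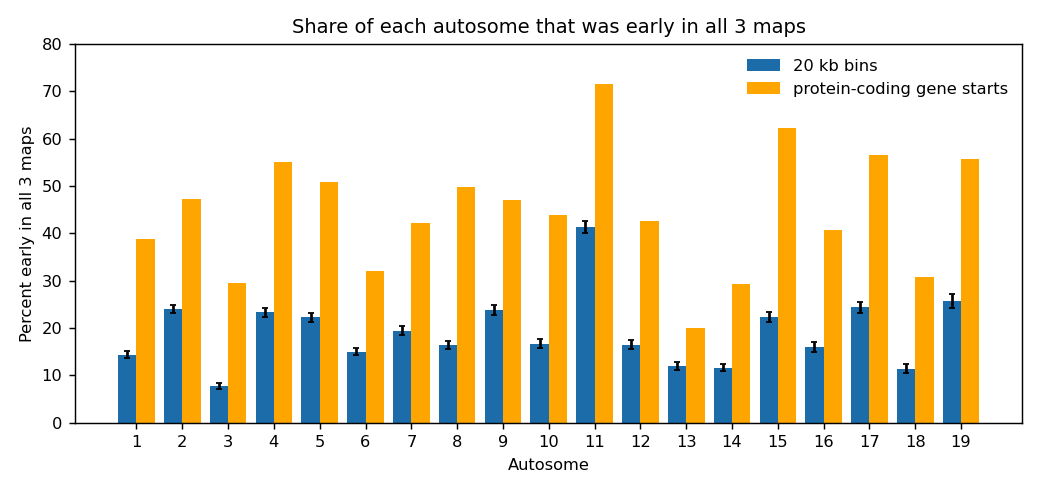
Percent of 20 kb bins (blue, with Wilson 95% intervals) and of protein-coding gene starts (orange) of each autosome that were E in all 3 maps. Chromosome 11 stands highest for both, with 41.3% of bins and 71.6% of gene starts, and on every autosome the gene bar is taller than the bin bar. The naming of the states by gene density partly set that difference.

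On all 19 autosomes the shared regions held a larger share of gene starts than of bins. Bins E in no map enter that comparison, so the naming of the states by gene density partly set it. On chromosome 11, 71.6% of protein-coding gene starts lay in the shared regions, and on chromosome 15 it was 62.2%. The lowest value was 20.1%, on chromosome 13, although chromosome 3 had the smallest share of bins and 29.5% of its gene starts in them. Along the chromosomes, which in the mouse have the centromere at one end, the shared bins were more frequent in the parts far from the centromere, though not in a steady rise. After leaving out bins of wholly unknown bases, their share was 8.03% in the first of 10 equal parts of each chromosome, 16.1% in the second, 14.4% in the third and 15.5% in the fourth. It was 19.9% in the sixth, 28.0% in the ninth and 27.3% in the last. The last 2 Mb of the chromosomes did not follow 1 pattern: 9 of 19 autosomes had no shared bin there, while chromosome 2 had 90 of 100, chromosome 15 had 84 and chromosome 11 had 76.

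The 458 runs differed widely in length. The shortest, 4 single bins, measured 20 kb, and the longest 6640 kb. The median was 640 kb (95% interval from order statistics 580 to 740 kb), with quartiles of 345 and 1260 kb. The long runs carried most of the DNA. The 161 runs of at least 1000 kb held 70.8% of shared bins, and the 84 longest held 50% of them, while the 86 runs under 300 kb held 3.38%.

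The longest run, chr17:23720001-30360000, held 213 protein-coding gene starts, or 32.1 per Mb. Genes wholly inside it include *Rps2* and *Rps10*, which encode proteins of the small ribosomal subunit, *Rpl3l*, which encodes a muscle form of a large subunit protein, *Snrpc*, which encodes a protein of the U1 splicing particle, and the zinc finger genes *Zfp523* and *Zfp598*. The E domains of the 3 maps coincided closely there, since they reached past the run by at most 80 kb on the left and 60 kb on the right.

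The next run, chr9:60740001-67020000 (6280 kb), was gene-poorer, with 71 gene starts or 11.3 per Mb. It held *Tipin*, a partner of Timeless at the replication fork, the ribosomal protein genes *Rpl4*, *Rplp1* and *Rps27l*, *Zfp609*, and the 324 kb gene *Megf11*. Its ends matched the CH12 domain within 20 kb, but the MEF domain around it was 12100 kb long and extended 5100 kb further on the left.

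The third run, chr11:74260001-80480000 (6220 kb), held 122 gene starts and was itself a whole E domain of the CH12 map. *Rpa1*, the large subunit of the single-stranded DNA binding complex RPA, lies in it, with *Psmd11* of the proteasome, *Prpf8*, the core protein of the spliceosome, *Rpl23a*, *Zfp207* and the 244 kb gene *Ssh2*. In priB cells and MEFs the E state extended 60 kb beyond its left end and 180 kb and 160 kb beyond its right end.

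Both other long runs were on chromosome 2. The run chr2:28140001-33820000 (5680 kb) held 118 gene starts and was a whole E domain of the priB map. *Mrps2* and *Rpl12*, which encode a mitochondrial and a cytosolic ribosomal protein, lie in it with *Ralgps1*, *Med27* of the Mediator complex, *Fam125b* and *Hmcn2*. The run chr2:163580001-168540000 (4960 kb) held 101 gene starts. It contains *Cd40*, the B cell receptor for T cell help, *Nfatc2*, a calcium-regulated transcription factor, *Prex1*, and the zinc finger genes *Zfp334*, *Zfp335* and *Zfp663*. GC content was 49.3% in both, as in the chromosome 17 run, and 45.9% and 45.8% in the runs on chromosomes 9 and 11.

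Among the 297 runs of at least 500 kb, gene starts ranged from 1.92 to 66.7 per Mb, with a median of 17.2 (quartiles 11.1 and 25.0), and GC content from 40.6 to 52.4%. The densest was chr14:56020001-56560000, with 36 gene starts in 540 kb, among them *Psme1* and *Psme2* (the proteasome activator PA28), *Irf9* (interferon signalling), *Ripk3* (necroptosis), *Nedd8* (a ubiquitin-like modifier), *Tinf2* (a telomere protein) and *Nrl* (a photoreceptor transcription factor). The second, chr17:33620001-36280000, covers part of the major histocompatibility complex, with 158 gene starts in 2660 kb, and the third, chr7:4420001-5060000, had 37 gene starts in 640 kb, including *U2af2* (splicing), *Rpl28*, *Ube2s* and the heart troponin gene *Tnni3*. Genes known from nearly all cells and genes known from 1 tissue lay side by side in these runs.

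Only 12 runs held no protein-coding gene start, and 11 of them were under 300 kb. The exception, chr15:62180001-62580000 (400 kb, GC content 39.6%), overlaps the end of *Pvt1*, a long non-coding RNA gene beside *Myc*. The run chr10:36880001-37160000 (280 kb) overlaps the long non-coding RNA gene *Gm16988* and no protein-coding gene. The run chr6:98760001-98940000 (180 kb) overlaps *Foxp1*, a forkhead transcription factor gene that starts outside it.

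Longer runs were denser in genes and richer in GC. Gene starts per Mb were 15.4 (Poisson 95% interval 13.6 to 17.5) in runs under 300 kb and 16.1 (15.4 to 16.8) in runs of 300 to under 1000 kb, which overlapped. They were 20.7 (19.9 to 21.5) in runs of 1000 to under 2000 kb and 24.7 (24.0 to 25.4) in runs of 2000 kb and over. GC content was 43.7, 45.1, 46.4 and 47.2% in the same order.

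**Figure D2:**
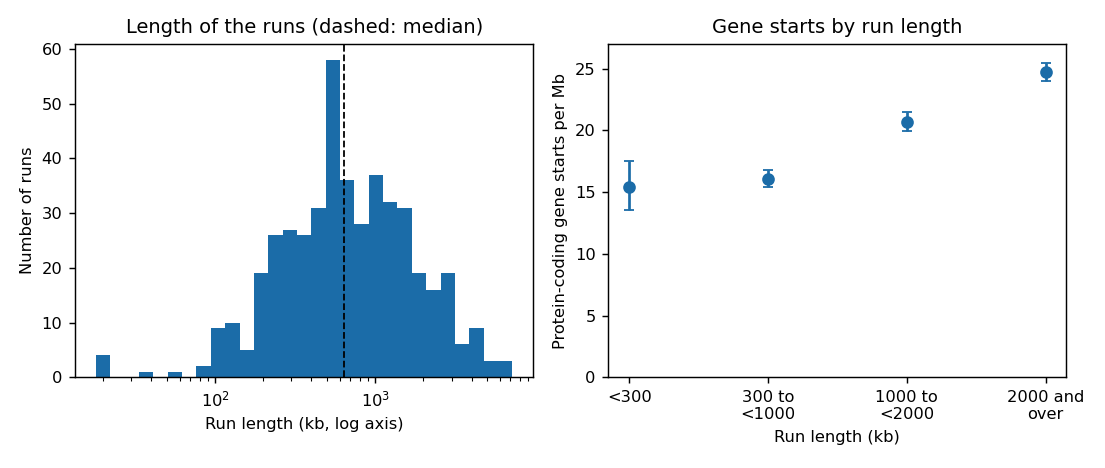
Left, number of runs E in all 3 maps by length (kb, log axis), with the median of 640 kb dashed. Right, protein-coding gene starts per Mb (points, with Poisson 95% intervals) in 4 length classes, which go from 15.4 in runs under 300 kb to 24.7 in runs of 2000 kb and over.

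The edges of the runs were then followed in each map. Of 915 run ends that did not meet the end of a chromosome, 440 (48.1%) were set by CH12 alone, 229 (25.0%) by MEFs alone and 198 (21.6%) by priB alone, and 1 was an edge in all 3 maps in the same bin. The bin next to an edge was in the M state in every map that left E there, which was given in advance, since E never touched L in these maps. Beyond the edge, the E state of CH12 ended within 100 kb at 73.9% of edges (70.9 to 76.6%), that of priB at 54.9% (51.6 to 58.1%) and that of MEFs at 43.4% (40.2 to 46.6%). The 3 maps had all left E within 100 kb at 18.9% of edges (16.5 to 21.6%) and within 300 kb, the span of the smoothing, at 44.7%. The shared regions were thus most often bounded by the edge of a CH12 domain, with the MEF domain reaching furthest, at a median of 160 kb beyond the edge against 80 kb in priB and 0 kb in CH12. CH12 also had the fewest E bins, 29295, and MEFs the most, 40565. The runs are an overlap of the maps, so this order is not separate from those totals.

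Between neighbouring runs on a chromosome lay 439 gaps, with a median of 1840 kb (quartiles 550 and 5200 kb) and a maximum of 41620 kb. In 177 gaps (40.3%, 35.8 to 45.0%) no bin was L in any map, and these were short, with a median of 440 kb against 4170 kb for the rest. In 128 gaps (29.2%) every bin was still E in at least 1 map. At least 1 bin was L in all 3 maps in 168 gaps (38.3%). Very short gaps were rare, with 15 of at most 100 kb.

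Gene content was compared between bins by the number of maps that called them E. The shared regions held 9804 of 21418 autosomal protein-coding gene starts, or 45.8% (45.1 to 46.4%), in 18.9% of bins. Their density of 21.0 starts per Mb (20.6 to 21.4) stood above 11.8 (11.4 to 12.3) in bins E in 2 maps and 8.64 (8.32 to 8.97) in bins E in 1 map. It also stood above 4.39 (4.28 to 4.49) in bins E in none, where the naming of the states by gene density partly set the difference. That naming may have set part of the other differences as well. The difference from bins E in 2 maps was present on 19 of 19 autosomes and averaged 8.82 ± 3.90 starts per Mb (SD, n = 19 autosomes). It was smallest on chromosome 13, with 12.2 against 11.7 starts per Mb. Each of the 3 ways of being E in 2 maps gave 12.0 starts per Mb without CH12, 12.2 without MEFs and 10.3 without priB, all below the shared regions.

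**Figure D3:**
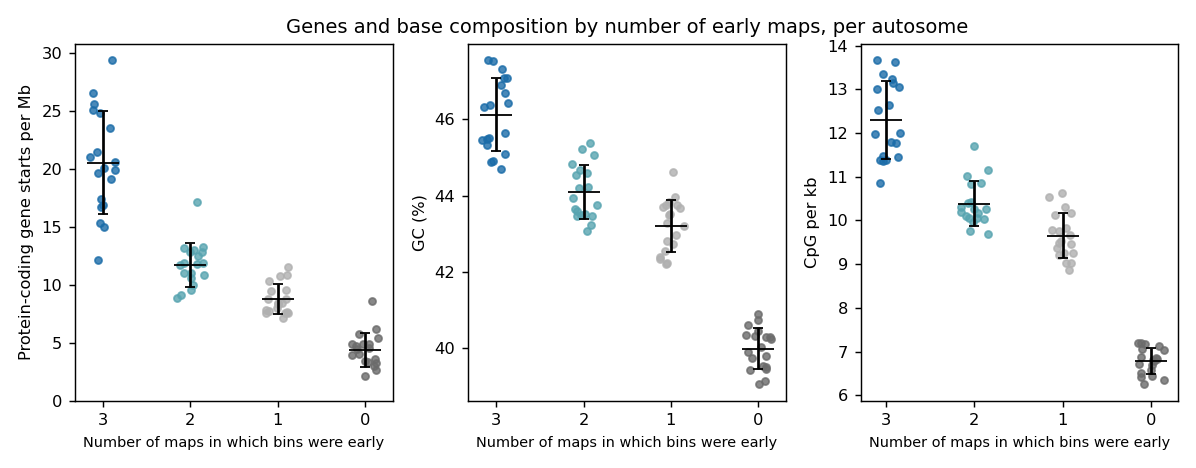
Protein-coding gene starts per Mb, GC content (%) and CpG dinucleotides per kb in bins E in 3, 2, 1 or 0 maps; each point is 1 autosome, and bars give the mean ± SD over 19 autosomes. All 3 measures are highest in bins E in 3 maps, at 20.6 starts per Mb, 46.1% GC and 12.3 CpGs per kb on average; the GC and CpG axes do not start at 0.

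Within the E bins of a single map, the same contrast appeared. The other E bins of a map were M or L in at least 1 other map, so the naming of states may have set part of it. Shared bins had 21.0 starts per Mb, and the other E bins had 10.9 (10.3 to 11.5) in CH12, 11.5 (11.1 to 11.9) in priB and 9.54 (9.22 to 9.87) in MEFs, with shared bins higher on 19 of 19 autosomes in each map. Shared bins lie deeper inside E domains, so bins at the same distance from the edge of that map's own domain were set side by side. In CH12, bins up to 100 kb from a domain edge had 16.4 starts per Mb (15.3 to 17.5) where shared and 10.8 (9.88 to 11.8) where not, and bins over 600 kb from an edge had 24.0 (23.3 to 24.8) and 10.3 (8.54 to 12.4). The values in MEFs were 16.4 and 10.6 near the edge and 22.4 and 8.29 deep inside, and in priB they were 15.1 and 11.7 near the edge and 23.3 and 10.6 deep inside. Depth within a domain went with more genes in the shared bins, while the other E bins of the 3 maps had no more genes deep inside than near the edge. Bins over 600 kb from an edge come only from long domains, so depth and domain length were not separated.

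Base composition followed the same order. GC content was 46.3% in the shared regions, 44.1% in bins E in 2 maps, 43.2% in bins E in 1 map and 39.9% in bins E in none, and the shared regions were higher on 19 of 19 autosomes in each comparison. GC content had also served to check the names of the states, so its difference from bins E in none is a description and not a finding. That check may bear in part on the other comparisons too. The difference from bins E in 2 maps averaged 2.03 ± 0.655 percentage points (SD, n = 19 autosomes). CpGs numbered 12.4, 10.4, 9.58 and 6.74 per kb. Many gene starts lie in CpG-rich stretches. In bins without a protein-coding gene start the shared regions had 11.0 CpGs per kb and bins E in 2 maps 9.70, with GC contents of 45.7% and 43.8%. G-quadruplex motifs, runs of guanine that can fold into a 4-stranded structure, numbered 292 per Mb in the shared regions, 254 and 245 per Mb in bins E in 2 and 1 maps and 217 per Mb in bins E in none, counted on both strands. Bins that were E in both B cell maps and not in MEFs had a lower GC content, 43.3%, than bins E in MEFs and 1 B cell map, with 44.2% for MEFs and priB and 45.2% for MEFs and CH12.

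Both genes and GC rose gradually across the run edge. Between 500 and 1000 kb outside a run, gene starts numbered 6.46 per Mb and GC content was 42.0%. Within 200 kb outside they were 10.4 per Mb and 44.1%, and within 200 kb inside 16.8 per Mb and 45.3%. More than 1000 kb inside, the values reached 25.4 per Mb and 47.6%. Bins that deep lie only in the longest runs. Runs of 2000 kb and over as a whole had 24.7 per Mb and 47.2%, so depth and run length were not separated here. Smoothing over 300 kb blurs the edge itself.

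**Figure D4:**
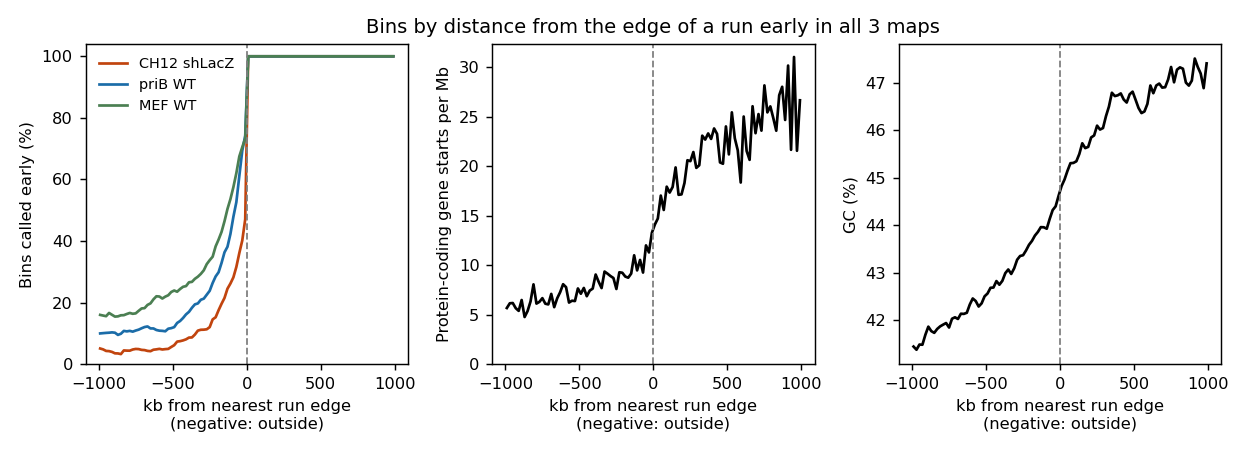
Bins by distance (kb) from the nearest edge of a run E in all 3 maps, negative outside and positive inside. Left, percent of bins called E in each map, which is 100 inside by the choice of the regions; middle, protein-coding gene starts per Mb; right, GC content (%, axis not from 0). Gene starts go from 10.4 per Mb in the 200 kb outside the edge to 16.8 in the 200 kb inside.

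Genes that start in the shared regions were of moderate length. Their median was 15.2 kb (quartiles 6.15 and 34.7), below the 21.5 kb of genes in bins E in 2 maps and the 23.8 kb of genes in bins E in 1 map, and above the 9.84 kb of the 6552 genes in bins E in none, among which are 992 olfactory and 317 vomeronasal receptor genes. Genes over 100 kb made up 5.94% (5.49 to 6.42%) of the 9804 genes, against 11.8%, 16.7% and 14.8% in the other classes. Of 188 protein-coding genes over 500 kb, 5 start in the shared regions, against 45.8% of all protein-coding genes. One of these, *Gm20388*, is annotated across 4.43 Mb of chromosome 8, an extent far above that of the other long genes there. The 5 longest genes wholly inside a run were *Rad51l1* (506 kb), *Dennd1a* (488 kb), *Itpr2* (394 kb), an inositol trisphosphate receptor, *Cdh23* (394 kb), a cadherin of hair cells, and *Sorcs2* (381 kb). Of the genes that start in the shared regions, 97.3% also lie wholly inside 1 run.

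Small nuclear, small nucleolar and microRNA genes and pseudogenes were less often in the shared regions than protein-coding genes. Long intergenic non-coding RNA genes (lincRNAs) lay there in 588 of 1232 cases, or 47.7% (44.9 to 50.5%), an interval that includes the protein-coding value of 45.8%. The share was 33.1% of 1331 small nuclear RNA genes, 32.5% of 1468 microRNA genes, 26.4% of 1458 small nucleolar RNA genes and 25.5% of 4055 pseudogenes. Annotated V segments of the antigen receptor genes were nearly absent, with 1 of 355. Of the J segments, 61 of 88 were inside. The 5 *Igkj* and 13 *Trbj* segments on chromosome 6, of the antibody kappa chain and the T cell receptor beta chain, were outside. Those inside were 44 with symbols starting with Gm16, 10 starting with Gm17, 5 *Traj* and 2 *Trdj*. The *Traj* and *Trdj* segments, of the T cell receptor alpha and delta chains, are on chromosome 14. Segments of 1 cluster are not independent, so the 61 are not separate cases.

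Gene lists were set beside the 45.8% of all protein-coding genes that start in the shared regions. The lists were chosen with earlier results of these data known, genes in 1 cluster share a run, and no test was made on them. Of the genes of the transcription, splicing and protein turnover machinery, most were in the shared regions. For RNA polymerase II, 11 of 12 subunit genes were there (91.7%, 64.6 to 98.5%), in 11 different runs, and the other, *Polr2d*, was E in priB and MEFs and M in CH12. Of 15 reference housekeeping genes, 13 were there, including *Actb*, *Gapdh*, *B2m* and *Eef1a1*, while *Tbp* was M in CH12 and *Sdha*, a subunit of succinate dehydrogenase, was M in all 3 maps. The proteasome had 29 of 38 (76.3%, 60.8 to 87.0%) and the spliceosome 29 of 40 (72.5%, 57.2 to 83.9%). The proteasome genes outside include *Psma2* and *Psma8*, which were L in CH12 and M in the other maps, and *Psmd6*, which was L in MEFs and M in both B cell maps.

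**Figure D5:**
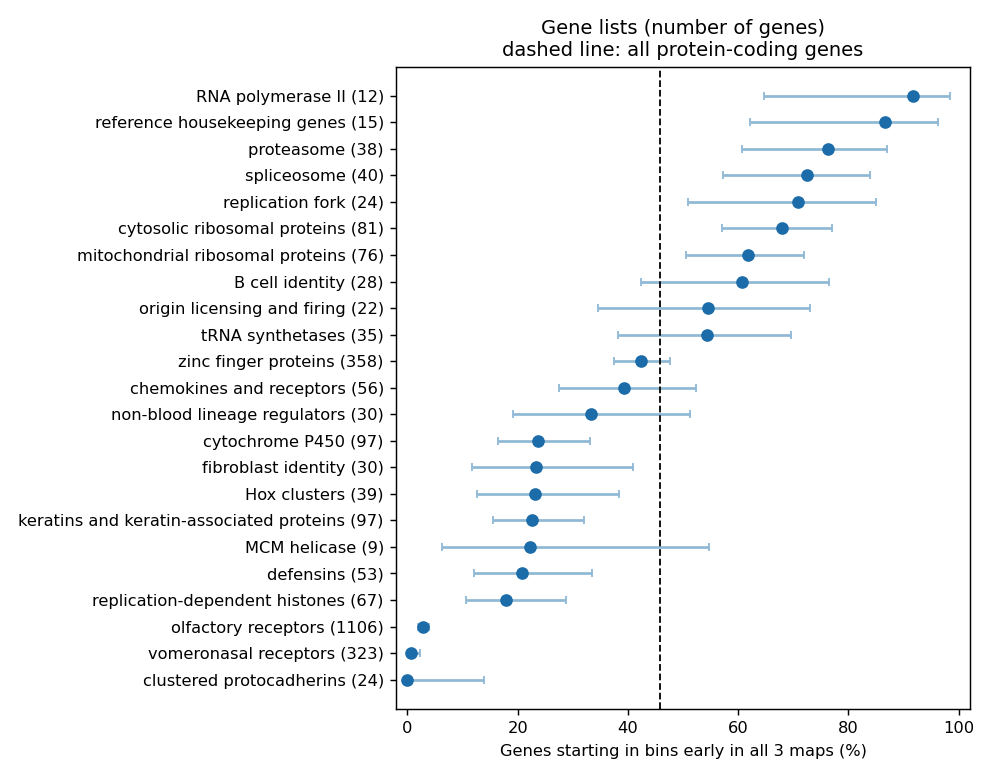
Percent of the genes of each list that start in bins E in all 3 maps (points, with Wilson 95% intervals; number of genes in brackets), with the value for all autosomal protein-coding genes, 45.8%, as a dashed line. RNA polymerase II subunits are at 91.7% and clustered protocadherins at 0%.

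Ribosomal protein genes lay both inside and outside the shared regions. Of 81 cytosolic ribosomal protein genes, 55 (67.9%, 57.1 to 77.1%) were in the shared regions, in 45 runs, and of 76 mitochondrial ones 47 (61.8%, 50.6 to 71.9%). *Rps7*, *Rps9*, *Rps12*, *Rps23* and *Rpl15*, which encode proteins of the small and large subunits, were M in all 3 maps. *Rpl10l*, a retrogene expressed in testis, was L in all 3. Aminoacyl-tRNA synthetases, which charge tRNAs with their amino acids, had 19 of 35 (54.3%, 38.2 to 69.5%), an interval that includes the value of all genes.

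The genes of replication itself are given by step, with intervals that overlap between the steps. Of 24 fork genes, 17 (70.8%, 50.8 to 85.1%) were in the shared regions, among them *Pcna* (the sliding clamp), *Pola2*, *Pold1*, *Pole*, *Prim1*, *Fen1*, *Rpa1*, *Rpa2*, *Timeless*, *Tipin* and *Clspn*. *Lig1*, the ligase that joins Okazaki fragments, and *Rfc3* were M in all 3 maps. Of 22 genes of origin licensing and firing, 12 (54.5%, 34.7 to 73.1%, which includes the value of all genes) were in the shared regions, including *Orc1*, *Orc2*, *Orc6*, *Cdc6*, *Cdt1*, *Gmnn*, *Cdc45*, *Gins2* and *Gins3*. *Orc5* was L in CH12 and MEFs and M in priB, and *Orc4* was L in CH12 and M in the other maps. *Rif1* itself was E in MEFs and M in both B cell maps. Of the 9 MCM genes, 2 were in the shared regions, *Mcm2* and *Mcm10* (22.2%, 6.32 to 54.7%), an interval that also includes the value of all genes. The helicase loaded at origins consists of the products of *Mcm2* to *Mcm7*, of which *Mcm2* alone was in the shared regions. *Mcm3*, *Mcm4*, *Mcm5* and *Mcm9* were M in all 3 maps, *Mcm7* and *Mcm8* were E in priB alone, and *Mcm6*, the gene targeted in other groups of the series, was E in both B cell maps and M in MEFs.

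Genes known for the cell types in the maps lay both inside and outside the shared regions. Of 28 B cell genes, 17 (60.7%, 42.4 to 76.4%, which includes the value of all genes) were in the shared regions, so they were E in MEFs too. These include *Cd22*, *Cd79a* and *Cd79b* of the B cell receptor and its co-receptors, *Cd40*, *Irf4*, *Irf8*, *Xbp1*, *Ikzf3* and *Spib*. All 28 were E in priB, 22 in CH12 and 21 in MEFs. Of all 21418 protein-coding genes, the E bins of each map held the 9804 that start in the shared regions. They held a further 2872 in priB, 1287 in CH12 and 3282 in MEFs. *Pax5*, the master regulator of B cell identity, *Ikzf1*, *Blnk*, *Ms4a1* (CD20) and *Prdm1* were E in both B cell maps and M in MEFs, and *Cr2*, a complement receptor, was E in priB alone. *Bcl6* was E in priB and MEFs and L in CH12.

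Of 30 fibroblast genes, 7 (23.3%, 11.8 to 40.9%) were in the shared regions, namely *Col1a1*, *Loxl1*, *Pdgfrb*, *Sparc*, *Tagln*, *Thy1* and *Timp2*, whereas 24 were E in MEFs, 11 in priB and 7 in CH12. The single-map numbers for all protein-coding genes, given with the B cell genes, are the background for these counts too. *Col3a1* and *Col5a2*, fibrillar collagens, and *Postn* and *Prrx1* were E in MEFs and L in both B cell maps. Of 30 regulators of lineages outside the blood, 10 (33.3%, 19.2 to 51.2%, which includes the value of all genes) were in the shared regions, among them *Olig2* (oligodendrocytes), *Sox10* (neural crest), *Myog* (muscle), *Pdx1* (pancreas), *Pou5f1* (pluripotent cells) and *Nkx2-5* (heart). *Sox2* and *Isl1* were L in all 3 maps.

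*Hox*, histone and defensin genes were in or out of the shared regions mostly as blocks, while keratin genes were split within chromosomes 11 and 15. Of the *Hox* genes, which pattern the body axis, all 9 of the chromosome 15 cluster (for example *Hoxc4* and *Hoxc13*) were in 1 shared run. The 11 genes of the chromosome 6 cluster and the 10 of the chromosome 11 cluster were E in priB and MEFs and M in CH12, and the 9 of the chromosome 2 cluster were E in MEFs alone. Replication-dependent histone genes split in the same way, with all 9 on chromosome 3 in the shared regions and 1 of 55 on chromosome 13. All 11 beta-defensin genes on chromosome 2 lay in 1 run, and none of the 35 defensins on chromosome 8 did. Keratins and keratin-associated proteins had 22 of 97, in 6 runs, including *Krt8*, *Krt18*, *Krt10* and *Krt14*, and were partly inside on chromosome 11, with 12 of 49, and on chromosome 15, with 8 of 24.

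The large receptor families were nearly absent. Of 1106 olfactory receptor genes, 31 (2.80%, 1.98 to 3.95%) were in the shared regions, in 13 runs, and 532 were L in all 3 maps. Chromosome 2, with 286 of these genes, and chromosome 9, with 129, had none. All 5 olfactory receptor genes of chromosome 8, such as *Olfr370* and *Olfr371*, were in the shared regions. Vomeronasal receptors, the pheromone receptors, had 2 of 323, *Vmn1r1* and *Vmn2r83*. None of the 24 clustered protocadherins annotated on chromosome 18, adhesion proteins of neurons, was E in any map, and a count of 0 of 24 allows up to 12.5% by 3 counts of the total and has a Wilson upper limit of 13.8%, although genes of a cluster are not independent. Cytochrome P450 genes had 23 of 97 (23.7%, 16.4 to 33.1%), with 4 of 5 on chromosome 9 and none of 17 on chromosome 4. Zinc finger (Zfp) genes, at 152 of 358 (42.5%, 37.4 to 47.6%), and chemokines and their receptors, at 22 of 56 (39.3%, 27.6 to 52.4%), had intervals that include the value of all genes.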

How the data were processed

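The authors labelled cells with BrdU, sorted early and late S phase cells and sequenced their nascent DNA. Per the labels and the study's methods, reads were trimmed (Trim Galore 0.6.5), aligned to mm9 (BWA 0.7.17) and filtered for unique alignments (SAMtools 1.9). Replicates were merged, log2 early to late ratios were taken in 20 kb windows (deepTools), loess smoothed over 300 kb and segmented into 3 states (hmm_bigwigs). The deposited maps hold domain positions and a state number, with no RT value, so depth and replicate spread are unknown. The processing of the MEF reads is not given separately in the sources used here.

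Each domain was assigned to 20 kb bins of the NCBIM37 genome. In each map the last domain ended at the reference length on 20 of 20 chromosomes. The priB map left 2870 autosomal bins without a state, and these count as not E. Genes were those of GENCODE M1, placed by their start; 4 listed symbols were found under an older symbol. GC, CpG and G-quadruplex motifs were counted per known base, and the motif count was added after other values had been seen. Shares have Wilson and densities exact Poisson 95% intervals, and functions were tested on simulated data. The members and lists were chosen with earlier results of these data known. Named runs are the 5 longest, the 3 densest of at least 500 kb and the 3 longest without a protein-coding gene start, with up to 6 genes each in the longest, listed genes first, and the 5 longest genes inside a run. Lists of up to 30 genes were named freely, larger ones by up to 5 members that differ from most, and some listed genes are not reported here by name; the genes named in the densest and the gene-less runs, and further members of lists, were chosen after their values were seen. Alternatives changed the bins, gaps, gene types, gene placement or maps used. The other 5 groups were not analysed here. Analyses used Python 3.11.15, numpy, pandas, scipy and matplotlib.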

Additional observations from a re-analysis of the deposited data

How the results depend on the processing

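No paired analysis was possible because the authors merged the replicates ahead of state calling, so that no replicate could be left out either. Of 133 alternative values over 40 results, 109 stayed within the reported interval or SD, or within 1.5 times for a count, and 24 did not. The number of runs and their median length were not among those that moved. The share of bins E in all 3 maps was 19.5% without bins of wholly unknown bases, 19.3% without the first 3 Mb of each chromosome, 15.3% without bins within 100 kb of a run edge, 17.7% with chromosome X added and 21.5% for bins E in both B cell maps whatever the MEF map.

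Gene starts per Mb with all gene types were 30.4, 18.3, 14.0 and 8.33 in bins E in 3, 2, 1 and 0 maps, and without bins within 100 kb of an E domain edge they were 22.2, 11.3, 7.94 and 4.08 for protein-coding genes. With 1 autosome left out at a time, the lowest value in bins E in 3 maps was 20.4, and bins E in 0 maps lay between 4.11 and 4.54. Without bins of wholly unknown bases, bins E in 0 maps had 4.62. The order of the classes held in each of these settings. CpG per kb in bins without a protein-coding gene start was 11.0 and 9.70 in bins E in 3 and 2 maps. The share of protein-coding genes was 44.5% for genes wholly inside the shared regions and 49.5% for bins E in both B cell maps. With the same choice of bins, B cell genes were at 78.6%, chemokines and receptors at 55.4% and zinc finger genes at 48.6%, and chemokines and receptors then lay above the 49.5% of all genes, where they had been below. No other list changed side in the 69 list values tried.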

Other observations

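Chromosome X was left out of the regions by their definition. Of its 8333 bins, 609 were E in both B cell maps and 0 were E in the MEF map, so no bin of X was E in all 3. Mice of both sexes were used in the study, and the sex of the cells behind each map is not given in the sources used here.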
